A study of Danio rerio with 2 samples.

Results

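Gadusol is a colourless compound that absorbs ultraviolet light and is known from the eggs and tissues of fish. Zebrafish make it themselves with a pair of enzymes. The first, 2-epi-5-epi-valiolone synthase, is encoded by eevs and closes the sugar sedoheptulose 7-phosphate of the pentose phosphate pathway into a ring. The second is a fused methyltransferase and oxidoreductase, encoded by the gene model zgc:113054, which uses S-adenosylmethionine and NAD to turn that ring into gadusol.

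These 2 genes are described here, out of 22849 genes in the deposited table. They were picked by name, eevs because its level differed between the libraries, so their own ratios are a description and carry no test. The genes whose start lies within 300 kb of the start of eevs on chromosome 6 are given as context, 7 of them besides the pair.

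RNA came from whole wild-type larvae of the zebrafish strain AB at 6 days post fertilization (dpf). One group had been kept from 3 to 6 dpf in benzo[a]pyrene (BaP, 1 µM), and the other, over the same days, in 0.1% dimethyl sulfoxide (DMSO), the vehicle. Found in smoke and soot, BaP binds the aryl hydrocarbon receptor (AhR). This receptor is a transcription factor that switches on genes for the breakdown of foreign compounds. Each treatment was represented by 1 library, made from RNA of 4 pooled biological replicates, so no difference below has a replicate check and no p-value is given. The study's title names toxicity of BaP to bone as its subject.

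The deposited values are normalized read counts rounded to whole numbers. They summed to 11968060 in the BaP library and 13443263 in the DMSO library, with a median of 143 in both. Estimated reads numbered about 21996000 for BaP and 19806000 for DMSO. All 12 organs for which markers were looked up had at least 1 marker with a value above 10 in both libraries, among them the retina, liver, muscle, skin and pigment cells. Of 8 AhR targets in the table, 5 were at least 2-fold higher in the BaP library (cyp1a, cyp1b1, cyp1c2, ahrrb and CABZ01114318.1, listed as ahrra in the name table) and 0 at least 2-fold lower, against 3.75% and 4.36% of all genes compared. The most abundant targets were cyp1a and the quinone reductase gene nqo1, the second with 1100 normalized reads in the BaP library and 775 in the DMSO library.

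Both gadusol genes were higher in the BaP library. The gene eevs (ENSDARG00000087873, chromosome 6, 43438074 to 43449013, minus strand, in the table's Ensembl coordinates) had 930 normalized reads in the BaP library and 21 in the DMSO library. Counting error alone gave exact Poisson 95% intervals of 886 to 976 for the BaP value and 14.3 to 29.9 for the DMSO value, so the intervals lay far apart. These values rest on about 1709 estimated reads for BaP and 31 for DMSO. The BaP value was 44.3 times the DMSO value, with a 95% interval of 31.0 to 65.3 for counting error, a log2 ratio of 5.47. Nearly all of the width of that interval comes from the few reads of the DMSO library.

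The gene zgc:113054 (ENSDARG00000053483, chromosome 6, 43450221 to 43474757, plus strand) had 1303 normalized reads in the BaP library and 230 in the DMSO library. Its Poisson intervals were 1251 to 1356 in the BaP library and 206 to 256 in the DMSO library, from about 2395 estimated reads for BaP and 339 for DMSO. Its ratio was 5.67 (95% interval 5.05 to 6.36), a log2 ratio of 2.50. The ratio of eevs was thus 7.82 times that of zgc:113054, and their intervals, which cover counting error only, did not overlap. Since eevs was chosen for its ratio, this gap is a description and supports nothing more. The levels of these genes within a library are not set against each other, since the lengths of their transcripts were not used here.

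The libraries differed in where the pair stood among other genes. In the BaP library eevs ranked 2394 from the top of 22849 genes, above 89.5% of them, and zgc:113054 ranked 1512, above 93.4%. In the DMSO library eevs ranked 18946, above 16.7% of genes, and zgc:113054 ranked 8758, above 61.6%. By normalized read count, not corrected for transcript length, both genes thus stood among the higher ones in the BaP library. In the DMSO library eevs stood near the bottom by this count and zgc:113054 above the middle. Because whole larvae were used, more cells that express a gene and more RNA of it per cell cannot be told apart.

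Genes with a DMSO value near that of eevs give a scale for its ratio. Apart from eevs, 545 genes had 19 to 23 normalized reads in the DMSO library. In the BaP library their median was 19 normalized reads, with quartiles of 15 and 25. The highest of them, si:ch73-181m17.1, had 132 normalized reads in the BaP library, and the next, plek2, had 118. None of these 545 genes reached the 930 normalized reads of eevs. Since eevs was chosen because its level differed between the libraries, this describes where it lies and supports nothing more. Around the DMSO level of zgc:113054, 1133 other genes had 207 to 253 normalized reads. Their median in the BaP library was 219, with quartiles of 190 and 257, and 1 of them, si:ch1073-174d20.2 with 1496, lay above the 1303 of zgc:113054. This too is a description only.

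Over the whole table, 21764 genes whose values in the pair of libraries summed to 10 or more were compared. A ratio of at least 2 was found for 817 of them (3.75%) and a ratio of at most 0.5 for 948 (4.36%). Dividing each library by its summed value instead, which moves every log2 ratio up by 0.17, changed the split to 1120 higher and 647 lower. The median log2 ratio of all genes compared was -0.06. A ratio of at least 5 was found for 107 genes (0.492%), zgc:113054 among them, and a ratio of at least 32 for 4 (0.0184%), eevs among them. Since eevs was chosen for its ratio, these shares describe where it lies and support nothing more.

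**Figure D1:**
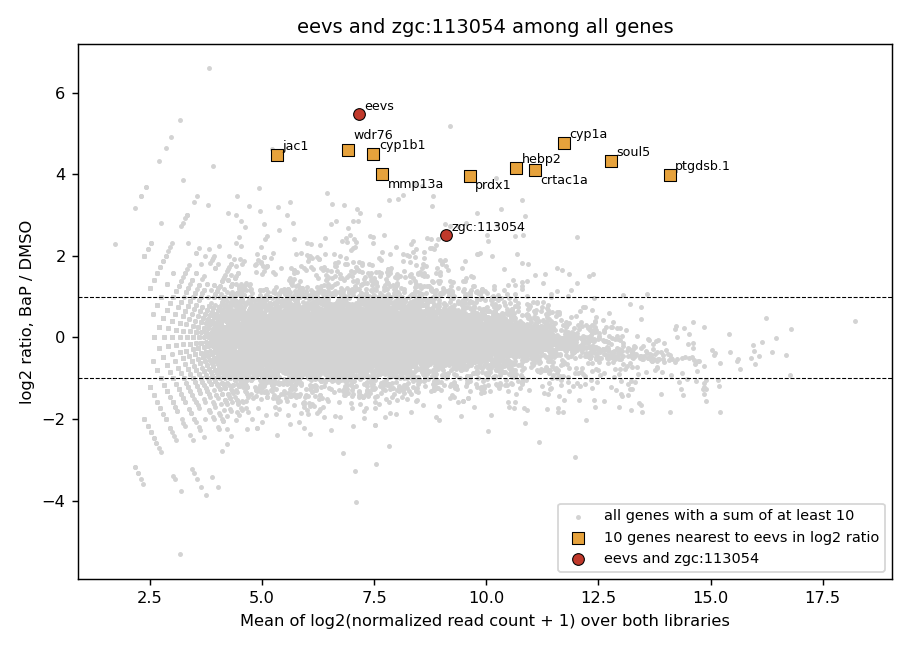
Log2 ratio of BaP over DMSO (vertical) against the mean log2 level over both libraries (horizontal) for every gene with a sum of at least 10 (grey points), with dashed lines at 2-fold. The red circles are eevs, at a log2 ratio of 5.47, and zgc:113054, at 2.50. The orange squares are the 10 genes nearest to eevs in log2 ratio among those with a sum of at least 100 and without clone names. In that set eevs had the highest ratio, so all 10 lie below it.

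By ratio eevs ranked 2 of 21764 genes, and zgc:113054 ranked 82. Among the 16287 genes with a sum of at least 100, eevs ranked 1 and zgc:113054 ranked 52. In that set 10 genes had a ratio of at least 16 and 33 of at least 8. The gene model si:ch211-161h7.5, with 3502 normalized reads in the BaP library and 97 in the DMSO library, was the only one besides eevs at 32 or more.

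The genes whose pattern was most like that of eevs were sought by the distance of their log2 ratio from its own, over the 2 libraries, among genes with a sum of at least 100 and without clone names. The nearest was the AhR target cyp1a, a cytochrome P450 gene whose product oxidizes BaP, with 17859 normalized reads in the BaP library and 650 in the DMSO library (ratio 27.5, 0.69 below eevs on the log2 scale). It was followed by wdr76, with 579 normalized reads in the BaP library and 24 in the DMSO library (ratio 24.1). The cytochrome P450 gene cyp1b1, another AhR target, had 842 normalized reads in the BaP library and 37 in the DMSO library (ratio 22.8). With 179 normalized reads in the BaP library and 8 in the DMSO library, jac1 had a ratio of 22.4, with a wide interval of 12.4 to 43.0.

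The remaining 6 had ratios between 15.7 and 20.2. They were soul5 and hebp2, of a family of heme-binding proteins, crtac1a, a matrix protein gene, the collagenase gene mmp13a (the model ENSDARG00000114451), the prostaglandin D synthase gene ptgdsb.1 and the peroxiredoxin gene prdx1. All 10 lie on chromosomes other than that of eevs. Of these 10 intervals, those of wdr76 (17.0 to 35.2) and jac1 overlapped that of eevs. With only 2 libraries this nearness is a single number per gene, and it follows from the choice of eevs for its ratio.

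The pair lies back to back on chromosome 6. The gene eevs is read on the minus strand and zgc:113054 on the plus strand, so their 5′ ends face each other, with 1207 bases between them in the table's annotation. Downstream of eevs, the 3′ end of mitfa lies 4796 bases away. Downstream of zgc:113054, the 3′ end of MDFIC2, a gene of the minus strand, lies 16877 bases away. The same order, mitfa, eevs, zgc:113054 and mdfic2, is found in RefSeq's annotation of the assembly GRCz12tu, where the spans of zgc:113054 and mdfic2 overlap. In the table neither eevs nor zgc:113054 overlaps another listed gene.

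Such facing pairs were counted over the table, a count chosen after the values of eevs and zgc:113054 were known. Of 1041 pairs of neighbouring genes with facing 5′ ends at most 2 kb apart and a sum of at least 10 each, 12 (1.15%) had both genes at least 2-fold higher in the BaP library. In 72 of the 1041 pairs at least 1 gene was at least 2-fold higher. Over all genes, a ratio of at least 2 was found for 817 (3.75%) and of at least 4 for 168 (0.772%). These are shares of single genes, so they give no background for the counts of pairs. No other kind of neighbouring pair is given for comparison. The pair of eevs and zgc:113054, with eevs chosen for its ratio, is included in every count of pairs here. Of 17 pairs in which a member was at least 4-fold higher, the partner was at least 2-fold higher in 7, and in 3 pairs both members passed 4-fold. These 3 were eevs with zgc:113054, the chaperone genes hsp70.2 (55 normalized reads in the BaP library and 3 in the DMSO library) and hsp70.3 (50 in BaP and 6 in DMSO), and irg1l (566 in BaP and 138 in DMSO) with si:ch211-153b23.3 (303 in BaP and 57 in DMSO). Near-identical copies such as the hsp70 genes can share reads, and the counting of such reads is not described in the labels.

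**Figure D2:**
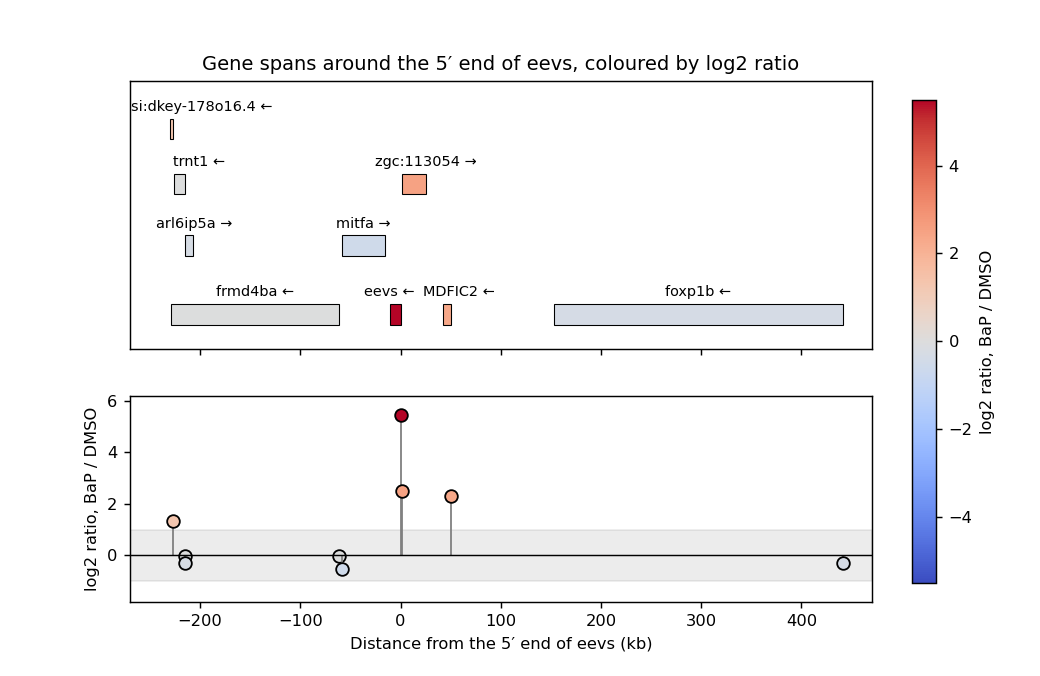
Upper panel, spans of eevs, zgc:113054 and the 7 neighbours by distance from the 5′ end of eevs in kb, with an arrow for the strand and colour for the log2 ratio of BaP over DMSO; lower panel, the same log2 ratios at each gene's 5′ end, with a grey band for less than 2-fold. The log2 ratios of 5.47 and 2.50 stand side by side at the facing 5′ ends. Also above the grey band, on few reads, lie MDFIC2 (2.32) and si:dkey-178o16.4 (1.32), while mitfa (-0.54) and frmd4ba (-0.01) lie in it.

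Of the 7 neighbours, all with a sum of at least 10, 2 were at least 2-fold higher in the BaP library (MDFIC2 and si:dkey-178o16.4), 0 were at least 2-fold lower and 5 lay within 2-fold. The background for this count is 3.75% higher and 4.36% lower over all genes, and both higher neighbours rest on few reads. The neighbours' median log2 ratio was -0.03 beside -0.06 for all genes, and its sign changed to 0.14 under scaling by the summed value and to 0.03 under both the median of ratios and the trimmed mean of M values.

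The gene mitfa (chromosome 6, 43390387 to 43433277), the master transcription factor gene of the black pigment cells, adjoins eevs. It had 11 normalized reads in the BaP library and 16 in the DMSO library, a ratio of 0.688 whose interval of 0.350 to 1.38 includes no difference. On the other side MDFIC2 (43491635 to 43498996), a gene with a MyoD family inhibitor domain, had 20 normalized reads in the BaP library and 4 in the DMSO library. Its ratio of 5.0 has an interval of 2.01 to 14.3, since it rests on about 37 estimated reads for BaP and 6 for DMSO. In RefSeq's annotation, though not in the table's, its span overlaps that of zgc:113054. Both mitfa and MDFIC2 have their 3′ end toward the pair. Of these, mitfa stayed within 2-fold, whereas MDFIC2 was past 2-fold at a level near the low end of the table.

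The forkhead transcription factor gene foxp1b (43602143 to 43890462) had 364 normalized reads in the BaP library and 453 in the DMSO library (ratio 0.804, 95% interval 0.720 to 0.896). The scaffold protein gene frmd4ba (43220191 to 43387920) had 695 in the BaP library and 698 in the DMSO library (ratio 0.996, 95% interval 0.916 to 1.08). These are the most abundant neighbours and the ones for which counting error is smallest. The interval of frmd4ba includes no difference, while that of foxp1b lies below it, and both genes stayed within 2-fold. Within the span of frmd4ba lie trnt1, for the enzyme that adds the CCA end to transfer RNA, with 224 normalized reads in the BaP library and 229 in the DMSO library, and arl6ip5a, a gene for a small membrane protein, with 60 in BaP and 73 in DMSO. The gene model si:dkey-178o16.4, which the name table pairs with the vasopressin receptor gene avpr2b.1, had 30 normalized reads in the BaP library and 12 in the DMSO library (ratio 2.50, 95% interval 1.42 to 4.85). This model overlaps the end of frmd4ba on the same strand, so reads of the 2 genes could be split between them. The same holds for trnt1, which lies within frmd4ba on that strand.

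The window edge did not cut through genes with large ratios. The outermost genes inside it were si:dkey-178o16.4, 219.2 kb below the start of eevs, and foxp1b, 164.1 kb above it. The first genes outside were lrrn1, with 869 normalized reads in the BaP library and 1141 in the DMSO library, and gpr27, with 238 in BaP and 243 in DMSO.

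**Figure D3:**
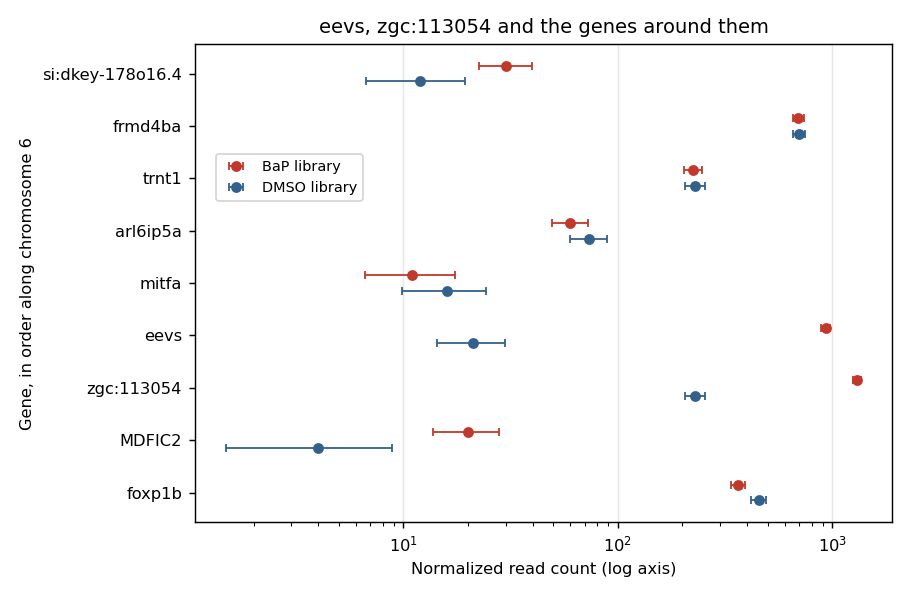
Normalized read count (log axis) of each gene in the BaP library (red, upper point) and the DMSO library (blue, lower point), in order along chromosome 6, with exact Poisson 95% intervals for counting error. The 2 points are far apart for eevs (930 in BaP, 21 in DMSO) and zgc:113054 (1303 in BaP, 230 in DMSO). At low values they also lie apart for MDFIC2 (20 in BaP, 4 in DMSO) and si:dkey-178o16.4 (30 in BaP, 12 in DMSO). They are near each other for frmd4ba, trnt1 and mitfa.

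The genes that supply the substrates of gadusol were looked up next. The highest ratio in these lists was 2.59, against 44.3 for eevs and 5.67 for zgc:113054. Since eevs was chosen for its ratio and zgc:113054 was picked along with it, both contrasts are a description only. The pentose phosphate pathway makes sedoheptulose 7-phosphate and reduces NADP. Of its 16 listed genes in the table, all with a sum of at least 10, 1 was at least 2-fold higher in the BaP library and 0 were lower, against 3.75% and 4.36% of all genes, with 10 above a ratio of 1 and 6 below. The list's median log2 ratio was 0.27, against -0.06 over all genes. The higher gene was pgd, for 6-phosphogluconate dehydrogenase, with 1144 normalized reads in the BaP library and 441 in the DMSO library (ratio 2.59, 95% interval 2.37 to 2.84).

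The genes of the enzymes that handle this sugar stayed within 2-fold. The 2 transketolase genes, whose enzymes form it from pentose phosphates, were the most abundant of the list. The first, tkta, had 2411 normalized reads in the BaP library and 2591 in the DMSO library (ratio 0.931), and the second, tktb, had 2295 in BaP and 1565 in DMSO (ratio 1.47). The gene taldo1, for transaldolase, which also uses this sugar, had 943 normalized reads in BaP and 640 in DMSO (ratio 1.47). The gene shpk, for the kinase that phosphorylates free sedoheptulose, had 14 in BaP and 18 in DMSO (ratio 0.778, 95% interval 0.413 to 1.44).

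S-adenosylmethionine is the methyl donor of the second step. Of 14 genes of its supply and recycling, 1 was at least 2-fold higher in the BaP library and 1 lower, against 3.75% and 4.36% of all genes, so the count lies near the background. The median log2 ratio was 0.25. The higher gene was mtrr, for methionine synthase reductase, with 257 normalized reads in the BaP library and 124 in the DMSO library (ratio 2.07, 95% interval 1.74 to 2.49). The lower gene was bhmt, which makes methionine from betaine, with 5085 normalized reads in the BaP library and 13663 in the DMSO library (ratio 0.372, 95% interval 0.363 to 0.382). Its list mate ahcy, for the enzyme that clears S-adenosylhomocysteine, had 6704 normalized reads in the BaP library and 11384 in the DMSO library (ratio 0.589). The methionine adenosyltransferase gene mat2aa, whose enzyme makes the donor, had 1354 in BaP and 802 in DMSO (ratio 1.69). The list therefore held ratios on both sides of 1 among its abundant members.

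Of 15 NAD supply genes 0 were at least 2-fold higher and 0 lower, against 3.75% and 4.36% of all genes, so the count says nothing particular of the list. Its median log2 ratio was 0.05. Ratios in this list ran between 0.639 for tdo2a and 1.88 for nmrk2, a nicotinamide riboside kinase gene. The most abundant members were tdo2b, for a tryptophan dioxygenase, with 1204 normalized reads in the BaP library and 755 in the DMSO library, and nmrk2, with 675 in BaP and 359 in DMSO. Both lay above a ratio of 1 and below 2-fold.

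The table annotates eevs with 3-dehydroquinate synthase activity, the related bacterial and plant reaction, and eevs is the 1 gene in it with that term. It annotates zgc:113054 with O-methyltransferase activity, a term it gives to 24 other genes. Of those 24, all with a sum of at least 10, 0 were at least 2-fold higher and 0 lower in the BaP library, near the 3.75% and 4.36% of all genes, and 1 was higher under scaling by the summed value. Their ratios lay between 0.724 and 1.86. Their median log2 ratio of -0.06 equalled that of all genes, and its sign changed to 0.11 under scaling by the summed value and to 0.001 under the trimmed mean of M values. The most abundant of the 24 were pcmtd2, of the protein carboxyl methyltransferase family, with 504 normalized reads in the BaP library and 599 in the DMSO library, and cmtr1, whose enzyme methylates the cap of messenger RNA, with 353 in BaP and 359 in DMSO.

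**Figure D4:**
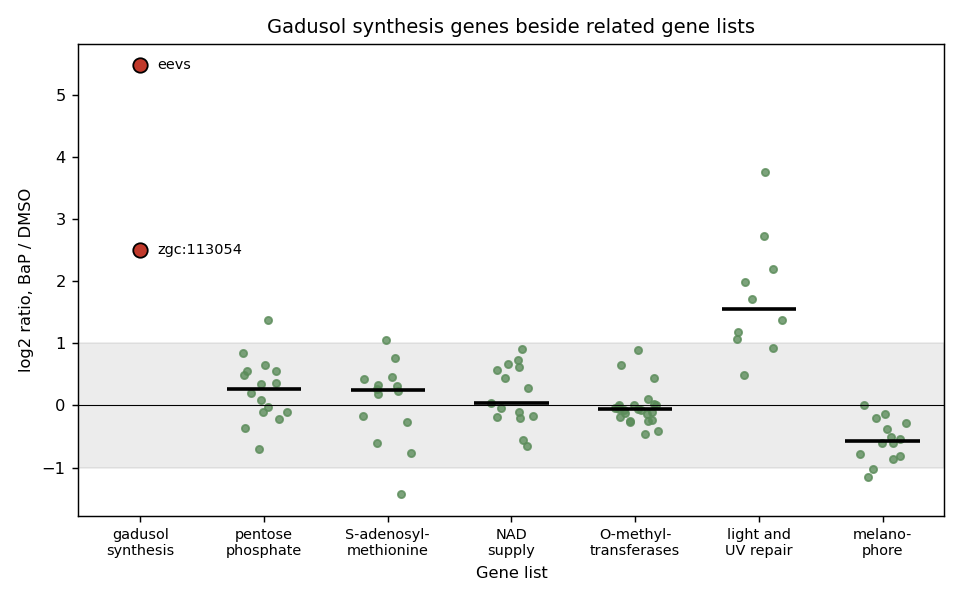
Log2 ratio of BaP over DMSO for eevs and zgc:113054 (red) and for each gene of 6 lists (green points, with a black bar at the list's median); the grey band marks less than 2-fold. The medians are 0.27 for the pentose phosphate list, 0.25 for S-adenosylmethionine, 0.05 for NAD supply and -0.06 for the methyltransferases. The light and ultraviolet repair list lies above 0 with a median of 1.55, and the melanophore list lies at or below 0 with a median of -0.57.

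Gadusol screens out ultraviolet light, so other genes of light response and light protection were set beside it. In zebrafish, light itself induces a set of genes that repair ultraviolet damage to DNA or reset the clock. Of 10 such genes in the table, 8 were at least 2-fold higher in the BaP library and 0 lower, against 3.75% and 4.36% of all genes, and all 10 had a ratio above 1. The median log2 ratio was 1.55. The list was written with earlier results for some of its genes known, so its direction is not independent evidence. Lighting and hour of collection are not in the sample labels used here, and their part in these values was not tested.

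The photolyases, which use visible light to undo ultraviolet damage, were among the higher members. The 6-4 photolyase gene cry5 had 1222 normalized reads in the BaP library and 90 in the DMSO library (ratio 13.6, 95% interval 11.4 to 16.4). Its relative cry-dash had 1690 in BaP and 255 in DMSO (ratio 6.63), and zgc:66475, which the name table pairs with the cyclobutane dimer photolyase gene cpdp, had 948 in BaP and 364 in DMSO (ratio 2.60). The excision repair gene xpc had 921 normalized reads in the BaP library and 200 in the DMSO library (ratio 4.61), and neil1, a base excision glycosylase gene, had 666 in BaP and 319 in DMSO (ratio 2.09). The ratio of xpc was the closest in this list to the 5.67 of zgc:113054 from below, and that of cry-dash from above. None of the 10 reached the ratio of eevs, which follows from the choice of eevs for its ratio.

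The other higher members were lonrf1, with 5522 normalized reads in the BaP library and 1682 in the DMSO library (ratio 3.28), tefa, a transcription factor gene of the light response, with 2241 in BaP and 565 in DMSO (ratio 3.97), and the clock gene per2, with 2681 in BaP and 1186 in DMSO (ratio 2.26). The damage sensor gene ddb2, with 633 in BaP and 332 in DMSO, and cry1aa, with 1779 in BaP and 1269 in DMSO, stayed below 2-fold.

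Melanin also screens out light, and mitfa, the regulator gene of the cells that make it, is the neighbour of eevs. Of 14 melanophore and melanin genes 0 were at least 2-fold higher in the BaP library and 2 were lower, against 3.75% and 4.36% of all genes. These were tyr, for the tyrosinase that starts melanin synthesis, with 31 normalized reads in the BaP library and 63 in the DMSO library (ratio 0.492, 95% interval 0.347 to 0.691), and pmelb, a melanosome matrix gene, with 35 in BaP and 78 in DMSO (ratio 0.449, 95% interval 0.323 to 0.619). The median log2 ratio was -0.57, and 13 of the 14 lay below a ratio of 1. Under scaling by the summed value the median was -0.40, with 12 below, and 0 genes remained at least 2-fold lower. Most of the markers of other organs were lower too. Of the 21 found in the table outside the pigment cells, 17 lay below a ratio of 1. At least 2-fold lower were 10, against 4.36% of all genes. Their median log2 ratio was -0.88, against -0.06 over all genes. The lowest ratios were those of the skin keratin gene krt4 and the pancreatic elastase gene ela2l. In the BaP library krt4 had 20308 normalized reads and in the DMSO library 71631, while ela2l had 6195 in BaP and 19022 in DMSO. Those above 1 were the lens markers crygn2 (ratio 1.31) and cryba4 (1.07), the liver marker fabp10a (1.02) and the red cell marker alas2. Of the red cell markers looked up by symbol, hbae1.1 and alas2, only alas2 was found in the table. Other hemoglobin genes, such as hbae1 and hbbe1.2, are in the table but were not among the markers. The single marker that was at least 2-fold higher was alas2, with 396 in BaP and 71 in DMSO. The part of these differences in the values of the melanophore list was not tested. The most abundant melanophore members were trpm1b, with 421 normalized reads in the BaP library and 596 in the DMSO library, and sox10, with 261 in BaP and 340 in DMSO.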

How the data were processed

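Per the labels' protocols, 200 ng of total RNA from 4 pooled biological replicates entered a stranded mRNA library for each treatment. The submitters' processing notes name the builds GRCz11 and danRer11 and, without a role or order, the tools featureCounts 1.6.3, Subread, STAR 2.6.1d and Trimmomatic 0.38. The deposited values are a score, read counts normalized by the authors and rounded to whole numbers; the scaling, the handling of reads shared by several genes and the use of strand in counting are not described in the labels or the table. The table does not name the build of its Ensembl coordinates.

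From the alternating frequency of low values each library's scaling factor was estimated by maximum likelihood (0.544 for BaP, 0.679 for DMSO), and values were divided by it to give estimated reads, known to within about 1 read. This presumes scaled columns. The method was tested on data simulated with the same scaling and rounding, which cannot check that presumption. The ratio is BaP over DMSO of the deposited values, for genes with a sum of at least 10, with a 0 set to 3 estimated reads. Intervals are exact Poisson intervals for a value and Clopper-Pearson intervals conditional on the sum for a ratio, at 95%, widened for rounding. They cover counting error only, and reads carry no molecular identifiers. Genes and lists were chosen with earlier results of these data known. Named are eevs, zgc:113054, the measured neighbours, list members past 2-fold, the 2 most abundant of each list and the 10 genes nearest in log2 ratio; others were named after their values had been seen. The values of some named AhR targets are left out. List symbols were matched in the table or through the name table. The planned promoter motif search was not made, as no sequence was used here. Software was scipy 1.17.1, numpy 2.4.6, pandas 2.3.3 and matplotlib 3.10.9 under Python 3.11.15.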

Additional observations from a re-analysis of the deposited data

How the results depend on the processing

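The ratio of eevs lay between 36.0 (5 added to both values) and 49.7 (libraries scaled by the total of all values), and that of zgc:113054 between 5.57 and 6.36 under the same 2 settings, all within the interval of the deposited ratio. Scaling by the median of ratios or by the trimmed mean of M values, adding 1, or removing the trend of the ratio on expression gave values between these. With the deposited values taken as reads the intervals were 28.8 to 71.9 for eevs and 4.92 to 6.55 for zgc:113054. Over all genes, 1984 were higher and 2501 lower at 1.5-fold, and 168 were higher and 106 lower at 4-fold; with a sum of at least 50, 497 were lower. Of the neighbours 1 was higher at 4-fold, since si:dkey-178o16.4 has a ratio of 2.50. In a window of 100 kb 1 was higher, since si:dkey-178o16.4 lies 219.2 kb from the start of eevs. With a sum of at least 50, 0 neighbours were higher, because the 2 higher neighbours have low values. Scaled by the total of all values, 1 gene of the supply, light and melanophore lists was lower in place of 3. In the same lists 13 genes were higher in place of 10, and both changes follow from the construction of that scaling. No paired analysis was possible because each treatment has 1 library, and for the same reason no library could be left out. The 31 estimated reads of eevs in the DMSO library limit how closely its ratio is known, and any variation between batches of larvae is not covered.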
